A study of Mus musculus with 28 samples.

Results

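Gfi1 is a zinc finger repressor and Pou4f3 is a POU-domain activator, and both are needed in the inner ear for hair cells (HCs) to mature and survive. The comparison described here asks how the response of mouse embryonic cells to Pou4f3 changed when Gfi1 was expressed with it. It was chosen by design and not by values. It is the Dox effect in the line that carries Gfi1 and Pou4f3 (iG+P) minus the Dox effect in the line that carries Pou4f3 alone (iPou4f3), and it uses 8 of the 28 libraries of the series, 2 in each of 4 groups. Every cell came from the embryonic stem cell line A2loxCre, in which a doxycycline (Dox) inducible cassette was placed. The iPou4f3 cassette holds Myc-tagged Pou4f3 and the fluorescent protein mVenus, and the iG+P cassette holds untagged Gfi1, Myc-tagged Pou4f3 and mVenus joined by self-cleaving peptides. Cells were grown as embryoid bodies (EBs), which hold early derivatives of many lineages. In both lines Dox was given at 2 µg/ml for 48 h, and mVenus+ cells were sorted at day 6. The No Dox libraries are whole, unsorted EBs of the same day. Replicates are described in the series record as different clones of a line, with no pooling stated, so a value can carry clonal differences.

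As background, Gfi1 binds DNA through its zinc fingers and recruits corepressors, among them the histone demethylase Kdm1a, through its SNAG domain. It is best known in blood, where it restrains progenitor and myeloid genes, and in HCs it is switched on downstream of Atoh1 and Pou4f3. Loss of Gfi1 leaves HCs with neuronal genes still expressed. Pou4f3 acts in HCs and, with its relatives Pou4f1 and Pou4f2, in sensory neurons.

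The transgenes were read first, in normalized counts. Gfi1 (Entrez 14581, chromosome 5, 108145674 to 108155056 of NCBIM37) gave 29.1 and 46.4 normalized counts in untreated iPou4f3, 113 and 106 in iPou4f3 with Dox, 57.9 and 76.8 in untreated iG+P and 10729 and 12487 in iG+P with Dox. The difference of Dox effects for Gfi1 was 5.87 on the log2 scale (SE 0.35, limma adjusted p = 1.1e-08). iPou4f3 cells with Dox had more Gfi1 than their untreated EBs, but about 100 counts are far below the levels of the Gfi1 cassette. Pou4f3 gave 7.93 and 2.22 normalized counts in untreated iPou4f3, 4694 and 5381 in iPou4f3 with Dox, 22.6 and 45.3 in untreated iG+P and 17590 and 19883 in iG+P with Dox, so all 4 Dox libraries carried it and the iG+P libraries lay well above the iPou4f3 libraries. The mean of Pou4f3 with Dox was 3.72 times higher in iG+P than in iPou4f3, and in untreated EBs it was 6.70 times higher. Both the start and the end were higher in iG+P, and the difference of Dox effects for Pou4f3 was -0.73 (SE 0.66, limma adjusted p = 0.495). The Dox libraries alone gave 1.90. The level of Pou4f3 and the presence of Gfi1 therefore differ together between the lines, and their parts in the results below cannot be told apart from these 8 libraries.

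**Figure D1:**
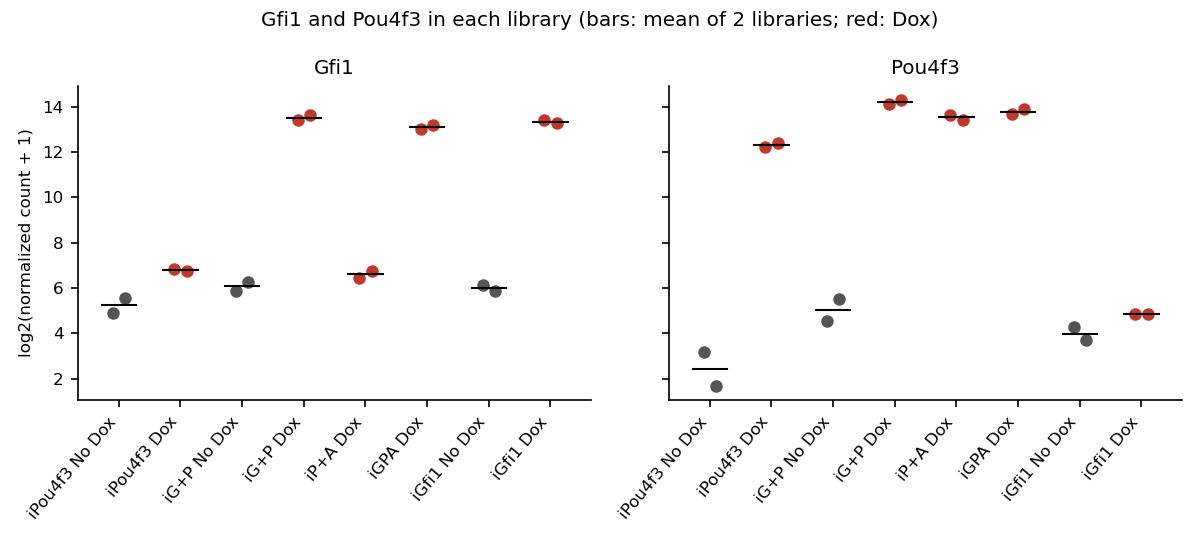
log2(normalized count + 1) of Gfi1 (left) and Pou4f3 (right) in each library of iPou4f3, iG+P and iGfi1 without Dox (grey) and with Dox (red), and of iP+A and iGPA with Dox, with a bar at the mean of 2 libraries. With Dox, Pou4f3 counts are 4694 and 5381 in iPou4f3 and 17590 and 19883 in iG+P, with iP+A and iGPA between them, and Gfi1 is high in iG+P, iGPA and iGfi1.

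The addition of Gfi1 to Pou4f3 was followed by large differences in both directions. Of 16837 genes tested, 578 (3.43%) had a higher Dox effect in iG+P and 706 (4.19%) a lower one, at a limma adjusted p under 0.05 and a log2 difference of at least 1.5. At an unadjusted p under 0.05 there were 5094 genes. The median difference over all genes was 0.02 and the median SE was 0.261 (log2), with 14 residual degrees of freedom shared over the 14 groups. A difference of Dox effects can come from the Dox libraries or from the untreated libraries, so it was split into both parts. For 108 of the 578 higher genes (18.7%) the untreated part was the larger, and 378 were at least 1.5 apart in the Dox libraries themselves. For the lower genes the untreated part was the larger in 37 of 706 (5.24%), and 521 were at least 1.5 apart in the Dox libraries. Against the Dox libraries alone, with no use of the untreated EBs, 636 genes (3.78%) were higher and 897 (5.33%) lower.

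Many of these genes had little Dox effect in iPou4f3. Among the 706 lower genes, 462 (65.4%) had a Dox effect within 0.5 of 0 in iPou4f3, and the medians of the Dox effect were 0.10 in iPou4f3 and −2.02 in iG+P. Among the 578 higher genes, 250 (43.3%) had a Dox effect within 0.5 of 0 in iPou4f3, and the medians were −0.23 and 2.16. The comparison chose these genes, so the medians describe them and test nothing. The sorting of Dox cells is shared by both lines and cancels in the difference as far as it acts alike in them. In bulk libraries a lower level can mean fewer cells of a type or less RNA in each cell, and these cannot be told apart.

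**Figure D2:**
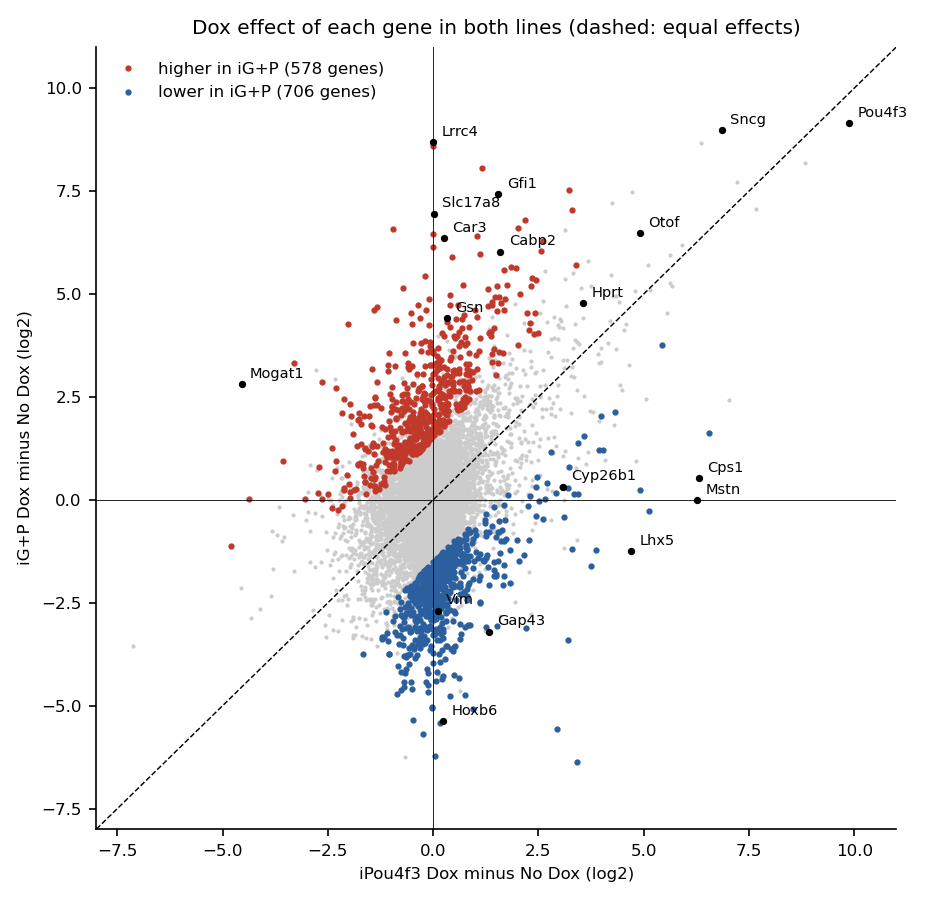
Dox minus No Dox (log2) of each gene in iPou4f3 on the horizontal axis and in iG+P on the vertical axis, with the 578 higher genes in red, the 706 lower genes in blue, other genes in grey and a dashed line where both effects are equal. The lower genes lie mostly near 0 in iPou4f3, with a median of 0.10, and at a median of −2.02 in iG+P.

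The 8 libraries were alike in size, with an estimated 35 to 44 M reads, 17628 to 17837 genes above 0, and a correlation between replicates of 0.9865 to 0.9894 (log2 values, across genes). The untreated EBs of the lines differed in the level of some gene lists. The summed normalized counts of 21 blood genes were 541100 and 422900 in untreated iPou4f3 against 85800 and 161800 in untreated iG+P, and 302300 and 288900 against 66290 and 126700 with Dox. The 18 genes of the list for immediate early genes and dissociation summed to 196700 and 90490 in untreated iPou4f3, 68970 and 65380 in iPou4f3 with Dox, 45330 and 101100 in untreated iG+P, and 42350 and 121100 in iG+P with Dox. No gene of either list was at 0 in all 8 libraries. The share of these differences in the results was not tested, and where the untreated part was the larger in a gene past the threshold this is said beside it.

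Among the genes with the largest positive differences were a vesicular glutamate transporter, metabolic enzymes and cell surface proteins. Slc17a8, the transporter that loads glutamate into the synaptic vesicles of inner HCs, had 3.18 and 0.857 normalized counts in untreated iPou4f3, 0 and 6.91 in iPou4f3 with Dox, 10.1 and 3.08 in untreated iG+P and 748 and 926 in iG+P with Dox. The iG+P Dox libraries stood above the other 6 by far, with a difference of 6.94 (SE 1.20, limma adjusted p = 0.000594). The position of Slc17a8 on NCBIM37 is chromosome 10, 89036765 to 89083998 (Entrez 216227). Car3, a carbonic anhydrase of muscle and fat, had 31.0 and 21.5 normalized counts in untreated iPou4f3, 19.6 and 49.4 in iPou4f3 with Dox, 16.9 and 24.8 in untreated iG+P and 2086 and 1469.5 in iG+P with Dox, with a difference of 6.09 (SE 1.11, limma adjusted p = 0.000909). Ces1d, a carboxylesterase, gave 0 and 4.46 normalized counts in untreated iPou4f3, 4.45 and 3.92 in iPou4f3 with Dox, 2.04 and 1.0 in untreated iG+P and 557 and 787 in iG+P with Dox, with a difference of 6.92 (SE 1.14, limma adjusted p = 0.000373). For Slc17a8, Car3 and Ces1d the 6 libraries outside iG+P with Dox overlapped and were low.

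Tctex1d1, a dynein light chain family member, had 6.61 and 0 normalized counts in untreated iPou4f3, 1.04 and 0 in iPou4f3 with Dox, 0 and 2.35 in untreated iG+P and 195 and 155 in iG+P with Dox (7.53, SE 1.23, limma adjusted p = 0.000365). Tll2, a tolloid-like metalloprotease, had 5.64 and 5.58 normalized counts in untreated iPou4f3, 1.78 and 4.90 in iPou4f3 with Dox, 2.04 and 2.0 in untreated iG+P and 185 and 59.6 in iG+P with Dox, with a difference of 5.84 (SE 0.85, limma adjusted p = 0.000136). The predicted gene Gm3285 was 0.840 and 1.85 in iPou4f3 with Dox and 29.6 and 81.5 in iG+P with Dox, with a difference of 6.01 (SE 1.15, limma adjusted p = 0.00143). These 3 genes were low in every library but the iG+P Dox libraries. Lrrc4, a synaptic adhesion protein, was listed at 0 in the other 6 libraries and at 396 and 425 in iG+P with Dox (limma adjusted p = 1.16e-08). Pcdhgb2, a clustered protocadherin, was likewise listed at 0 in the other 6 and at 524 and 286 in iG+P with Dox (limma adjusted p = 3.3e-08). Scx, a transcription factor of tendon, was listed at 0 in 6 libraries and at 88.9 and 85.4 in iG+P with Dox (limma adjusted p = 0.000153). Flrt1, a fibronectin leucine-rich transmembrane protein, was listed at 0 in all 4 iPou4f3 libraries, at 23.5 and 0 in untreated iG+P and at 427 and 287 with Dox (limma adjusted p = 0.00535, and 0.052 with only the libraries of the 2 lines in the fit). Lrrc4 lies within Snd1, Scx beside Bop1 and Flrt1 within Macrod1 in the annotation, and pseudo-alignment without strand cannot fully separate reads of overlapping transcripts. Whether reads of Pcdhgb2 were kept apart from those of other protocadherins of its cluster was not checked.

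For Mogat1 and Mir135a-1 the difference came in large part from untreated iPou4f3. Mogat1, a monoacylglycerol acyltransferase, had 564 and 543 normalized counts in untreated iPou4f3, 21.5 and 23.9 in iPou4f3 with Dox, 23.8 and 25.9 in untreated iG+P and 124 and 262 in iG+P with Dox, with a difference of 7.36 (SE 1.41, limma adjusted p = 0.00142). It fell with Dox in iPou4f3 to the level that untreated iG+P EBs already had, and its span overlaps that of BC035947. Mir135a-1, listed by its own Entrez ID, was 6.41 and 312 in untreated iPou4f3, 1 library far above the other, and 57.0 and 40.3 in iG+P with Dox (6.63, SE 2.05, limma adjusted p = 0.0308). Without iPou4f3 No Dox replicate 2, the Mir135a-1 difference was not past the threshold.

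The largest negative differences were of 3 kinds. The first were genes that Pou4f3 alone raised and that stayed low when Gfi1 was present. Lhx5, a LIM-homeodomain factor of the developing nervous system, had 6.77 and 15.6 normalized counts in untreated iPou4f3, 329 and 263 in iPou4f3 with Dox, 10.2 and 10.0 in untreated iG+P and 5.89 and 2.17 in iG+P with Dox. Both iPou4f3 Dox libraries were high and both iG+P Dox libraries were at or below the untreated level, and the difference was -5.95 (SE 0.93, limma adjusted p = 0.000256). Its position on NCBIM37 is chromosome 5, 120881895 to 120891466 (Entrez 16873). Cps1, the first enzyme of the urea cycle, had 1.13 and 1.12 normalized counts in untreated iPou4f3, 165 and 169 in iPou4f3 with Dox, 0 and 2.0 in untreated iG+P and 0.981 and 2.17 in iG+P with Dox, with a difference of -5.78 (SE 0.99, limma adjusted p = 0.000582). Ceacam9, a placental adhesion protein, had 1.13 and 1.11 normalized counts in untreated iPou4f3, 81.1 and 66.5 in iPou4f3 with Dox, 0 and 2.01 in untreated iG+P and 0 and 1.08 in iG+P with Dox, with a difference of -5.40 (SE 1.12, limma adjusted p = 0.00255). Mstn, myostatin, was 0 and 2.23 in untreated iPou4f3, 156 and 121 in iPou4f3 with Dox, and listed at 0 in all 4 iG+P libraries (limma adjusted p = 0.000178). Mstn was also listed at 0 in both libraries of iP+A (Pou4f3 with Atoh1) with Dox, a line without the Gfi1 cassette. Its rise was therefore seen in the iPou4f3 line only. Insyn2b, an inhibitory synapse factor, was 2.26 and 11.2 in untreated iPou4f3, 43.6 and 74.4 with Dox, 9.20 and 10.0 in untreated iG+P and listed at 0 in iG+P with Dox (limma adjusted p = 0.00125). Its span overlaps Dock2.

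The second kind were genes that Pou4f3 alone left near their untreated level and that were low in iG+P with Dox. Plac1, a placental membrane protein on the X chromosome, had 1149 and 1144 normalized counts in untreated iPou4f3, 1059.8 and 882 in iPou4f3 with Dox, 1986 and 1306 in untreated iG+P and 25.8 and 35.4 in iG+P with Dox, with a difference of -5.45 (SE 0.56, limma adjusted p = 3.94e-06). The 6 libraries outside iG+P with Dox lay between 882 and 1986 counts of Plac1. Cxcl14, a chemokine of epithelia and mesenchyme, had 51.9 and 94.8 normalized counts in untreated iPou4f3, 129 and 143 in iPou4f3 with Dox, 187 and 152 in untreated iG+P and 4.91 and 3.25 in iG+P with Dox, with a difference of -6.03 (SE 0.65, limma adjusted p = 6.82e-06). Abca8b, a lipid transporter, gave 163 and 104 in iPou4f3 with Dox and 6.78 and 1.07 in iG+P with Dox, against 85.8 to 120.1 in the 4 untreated libraries (-5.18, SE 0.78, limma adjusted p = 0.000172). Zfp689, a zinc finger protein, was 90.8 and 122 in iPou4f3 with Dox and 21.6 and 0 in iG+P with Dox (-5.49, SE 1.35, limma adjusted p = 0.00862, and 0.064 with only the libraries of the 2 lines). Pcdhac2, a clustered protocadherin, had 289.9 and 512 normalized counts in untreated iPou4f3, 416 and 373 in iPou4f3 with Dox, 689 and 571 in untreated iG+P and 4.90 and 10.8 in iG+P with Dox, with a difference of -6.26 (SE 1.48, limma adjusted p = 0.00641). As for Pcdhgb2, the split of reads among protocadherins of its cluster was not checked. Tcp11x2, a testis gene on the X chromosome whose span overlaps a second transcript, was 22.2 and 44.1 in iPou4f3 with Dox and 1.96 and 1.08 in iG+P with Dox (-5.58, SE 0.71, limma adjusted p = 3.48e-05). In these genes both iG+P Dox libraries lay below the other 6. The third kind were Hox genes, of which Hoxb6 was in this group of largest differences.

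**Figure D3:**
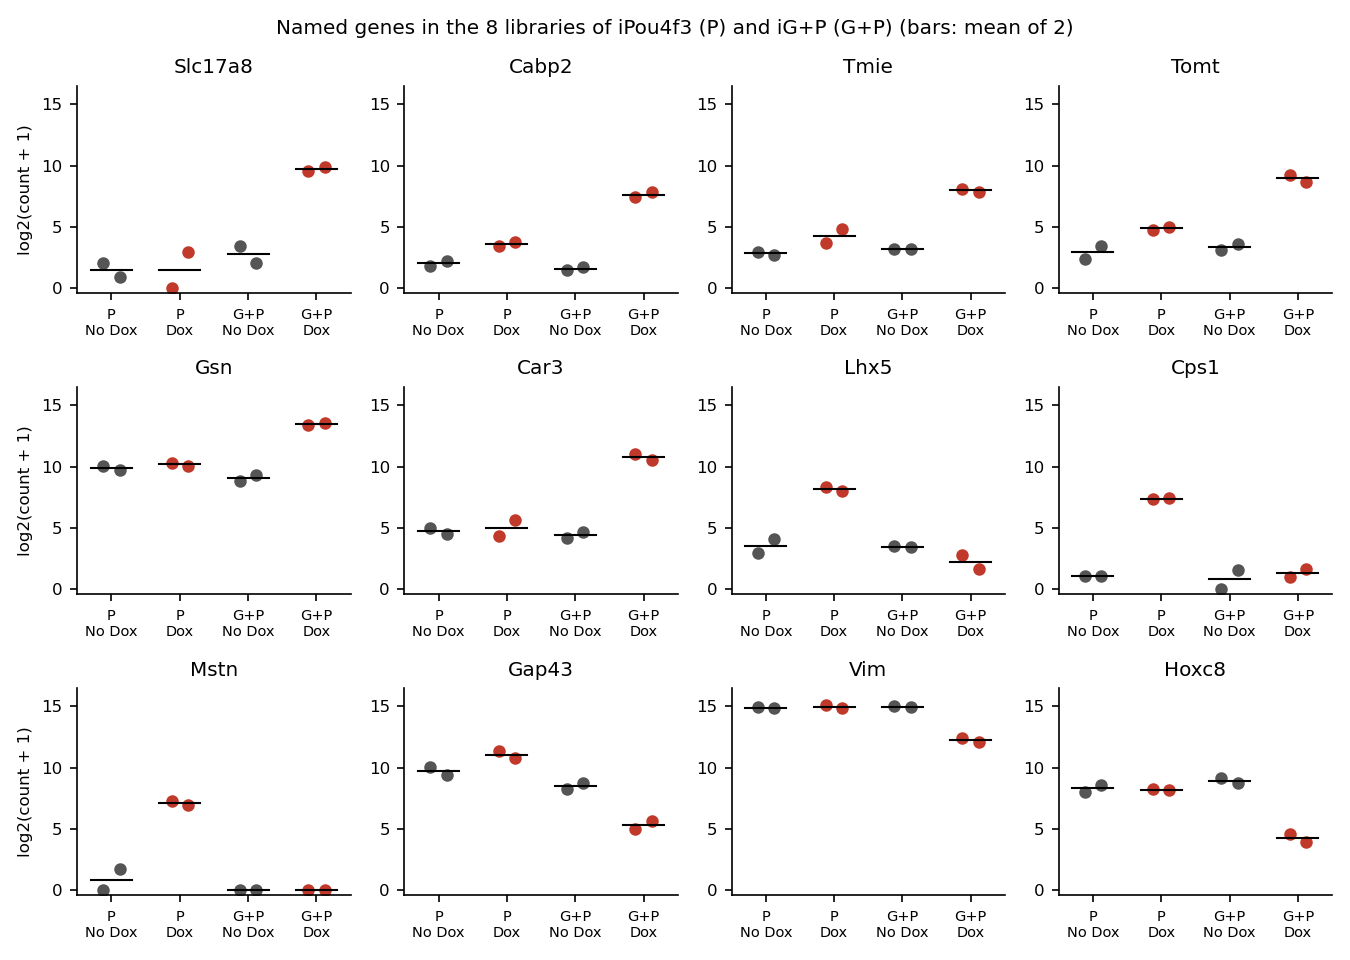
log2(normalized count + 1) of 12 genes in the 8 libraries, without Dox in grey and with Dox in red, for iPou4f3 (P) and iG+P (G+P), with a bar at the mean of 2 libraries. Slc17a8 is 748 and 926 counts in iG+P with Dox and at most 10.1 elsewhere, and Lhx5 is 329 and 263 counts in iPou4f3 with Dox and at most 15.6 elsewhere.

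Genes of the hair bundle and of the HC synapse leaned upward. The bundle is the stack of stereocilia that carries the mechanotransduction channels. Of 46 measured genes of this list, 8 (17.4%) had a higher Dox effect in iG+P, against 3.43% of all genes tested, and none a lower one, against 4.19%, and the median difference was 0.84 against 0.02 over all genes. The median Dox effect was 0.41 in iPou4f3 and 1.38 in iG+P, 36 of the 46 differences were positive, and the largest was that of Slc17a8. The summed counts of the list were 42040 and 55920 in untreated iPou4f3, 66350 and 66560 in iPou4f3 with Dox, 69150 and 41800 in untreated iG+P and 90040 and 99610 in iG+P with Dox, and Cdh23, which did not pass, made up most of each Dox sum. Cabp2, a calcium-binding protein of the HC synapse, had 2.5 and 3.70 normalized counts in untreated iPou4f3, 9.99 and 12.7 in iPou4f3 with Dox, 1.77 and 2.22 in untreated iG+P and 169 and 223 in iG+P with Dox, with a difference of 4.44 (SE 1.07, limma adjusted p = 0.00731). Tomt, which brings transduction channel proteins to the bundle, had 4.08 and 10.1 normalized counts in untreated iPou4f3, 25.6 and 31.1 in iPou4f3 with Dox, 7.84 and 10.9 in untreated iG+P and 616 and 411 in iG+P with Dox, with a difference of 3.66 (SE 0.74, limma adjusted p = 0.00214). Tomt shares its locus with other annotated transcripts. Tmie, a subunit of the transduction channel complex, had 6.77 and 5.58 normalized counts in untreated iPou4f3, 11.6 and 27.4 in iPou4f3 with Dox, 8.18 and 8.02 in untreated iG+P and 279 and 233 in iG+P with Dox, with a difference of 3.41 (SE 0.62, limma adjusted p = 0.000931). For Cabp2, Tomt and Tmie, iPou4f3 with Dox lay above its untreated EBs and iG+P with Dox lay about 10 to 20 times higher again.

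The other members past the threshold were bundle proteins that act on actin, on calcium or as a scaffold. Espn, the actin bundling protein of stereocilia, had 268 and 321 normalized counts in untreated iPou4f3, 192 and 312 in iPou4f3 with Dox, 446 and 551 in untreated iG+P and 2332 and 1421 in iG+P with Dox, with a difference of 2.14 (SE 0.50, limma adjusted p = 0.00606). Espn with Dox was not above untreated EBs in iPou4f3, and it was in iG+P. Myo15, the motor that carries proteins to stereocilia tips, had 483 and 384 normalized counts in untreated iPou4f3, 758 and 731 in iPou4f3 with Dox, 181 and 269 in untreated iG+P and 1764 and 1921 in iG+P with Dox, with a difference of 2.27 (SE 0.39, limma adjusted p = 0.0006). Part of the Myo15 difference lies in the lower untreated iG+P libraries. Atp2b2, the calcium pump of the bundle, was 97.7 and 122 in iPou4f3 with Dox and 505 and 532 in iG+P with Dox, from 20.5 to 27.3 in untreated EBs (1.99, SE 0.50, limma adjusted p = 0.0096). Ush1c, the scaffold harmonin, was 209 and 286 in iPou4f3 with Dox and 650.2 and 775 in iG+P with Dox, from 33.7 to 55.3 in untreated EBs (1.86, SE 0.42, limma adjusted p = 0.00491). Atp2b2 and Ush1c were above untreated EBs in both lines with Dox, without overlap between the lines. The count of 8 did not fall below 8 when any one library was left out.

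Of the HC and neuronal markers that the study follows, 11 were measured and only Espn passed the threshold (9.09% higher, against 3.43% of all genes). Otof, the calcium sensor of HC vesicle release, had 11.3 and 7.81 normalized counts in untreated iPou4f3, 231 and 414 in iPou4f3 with Dox, 5.11 and 9.02 in untreated iG+P and 997 and 485 in iG+P with Dox, and its difference of 1.58 (SE 0.68, limma adjusted p = 0.123) was not past it. Both lines had much more Otof with Dox than without. Myo6, an unconventional myosin of HCs, was 3008 and 3340.4 in iPou4f3 with Dox and 5066 and 5819 in iG+P with Dox, and its difference of 1.0 (SE 0.28, limma adjusted p = 0.017) is below the size limit of 1.5. Myo7a, a stereocilia myosin, was 1785 and 1888 in iPou4f3 and 2017 and 2048 in iG+P with Dox (0.45, SE 0.18, limma adjusted p = 0.0877, and 0.15 in the Dox libraries alone). Cdh23, the tip link cadherin, was 46480 and 44865 in iPou4f3 and 57248 and 67281 in iG+P with Dox and ranged from 24919 to 53051 in untreated EBs (0.28, SE 0.81, limma adjusted p = 0.86). Lhx3, a LIM-homeodomain factor of HCs, was near the lower limit in all 8 libraries, with 5.63 and 4.64 in iG+P with Dox and at most 1.62 elsewhere (2.02, SE 1.09, limma adjusted p = 0.224). Of the neuronal markers, Dcx, which binds microtubules in young neurons, was 33.8 and 40.1 in iPou4f3 with Dox and 142 and 279 in iG+P with Dox (1.5, SE 0.63, limma adjusted p = 0.111). Tubb3, neuronal tubulin, was 184 and 245 in iPou4f3 and 163 and 132 in iG+P with Dox (-0.24, SE 0.51, limma adjusted p = 0.798). Barhl2 (38.3 and 31.3 in iPou4f3 and 12.8 and 3.25 in iG+P with Dox) and Otx1 (11.6 and 53.8 in iPou4f3 and 38.3 and 28.2 in iG+P with Dox) had differences of -2.01 and -1.35 and were not past the threshold (limma adjusted p = 0.409 and 0.464). The sign for Otx1 came from the untreated libraries, since its Dox libraries alone gave 0.37.

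Of 24 measured transcription factors of HCs, 1 was higher and 1 lower (4.17% each), shares near the 3.43% and 4.19% of all genes. The median difference was 0.07, and members that did not pass lay between -2.01 (Barhl2) and 2.02 (Lhx3). Atoh1, the proneural factor that specifies HCs, had 6.78 and 13.3 normalized counts in untreated iPou4f3, 14.3 and 20.5 in iPou4f3 with Dox, 4.11 and 3.02 in untreated iG+P and 32.5 and 24.8 in iG+P with Dox, with a difference of 1.92 (SE 0.47, limma adjusted p = 0.00809). Its counts stayed low, the untreated part was larger (-1.22), it passed neither in the Dox libraries alone (0.70) nor without iPou4f3 No Dox replicate 2, and the Atoh1 cassette is not in these lines. Tbx2, which marks inner HCs, had 1334 and 2069 normalized counts in untreated iPou4f3, 2792 and 3019 in iPou4f3 with Dox, 4049 and 3245 in untreated iG+P and 701 and 931 in iG+P with Dox, with a difference of -2.97 (SE 0.48, limma adjusted p = 0.000318). iG+P with Dox was the lowest of the 4 groups for Tbx2.

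The genes that respond to Pou4f3 can be read from libraries that this comparison does not use. In cells with Atoh1, adding Pou4f3 (iP+A against iAtoh1) raised the Dox effect of 352 genes (2.09%), of which 350 remain without the transgenes. The median difference that defined them was 2.76. In the 8 libraries described here these 350 genes had a median Dox effect of 1.13 in iPou4f3 and 1.46 in iG+P, against 0 in all genes, and the effect was positive for 315 and for 288 of them. Of the 350 genes, 45 (12.9%) had a higher and 38 (10.9%) a lower Dox effect in iG+P than in iPou4f3, with a median difference of 0.27. Both shares are above those of all genes (3.43% and 4.19%), so members of the set went both ways. The fit estimates each gene's spread from all 28 libraries, which the definition and this count share.

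On the upper side of this set, Mybpc3, a myosin-binding protein of heart muscle, had 195 and 286 normalized counts in untreated iPou4f3, 286 and 357 in iPou4f3 with Dox, 28.6 and 87.2 in untreated iG+P and 2487 and 3755 in iG+P with Dox, with a difference of 5.47 (SE 0.72, limma adjusted p = 5.26e-05). Cd164l2, a sialomucin-like protein, had 63.2 and 37.9 normalized counts in untreated iPou4f3, 128 and 202 in iPou4f3 with Dox, 35.9 and 66.2 in untreated iG+P and 1639.9 and 1284 in iG+P with Dox, with a difference of 3.17 (SE 0.48, limma adjusted p = 0.00018). Btnl10, a butyrophilin-like protein, was 92.1 and 115 in iPou4f3 with Dox and 1026 and 1176 in iG+P with Dox (3.69, SE 0.56, limma adjusted p = 0.000195). Btnl10 and Cd164l2 were above untreated EBs in both lines with Dox and higher in iG+P, whereas Mybpc3 overlapped its untreated EBs in iPou4f3 with Dox and stood far above them in iG+P. Casz1, a zinc finger factor, was 788 and 1034 in iPou4f3 with Dox and 2905 and 3260.1 in iG+P with Dox, from 308 to 401 in untreated EBs (1.56, SE 0.44, limma adjusted p = 0.0194). Ptprz1, a receptor phosphatase of glia and progenitors, had 33.8 and 51.4 normalized counts in untreated iPou4f3, 49.8 and 93.0 in iPou4f3 with Dox, 82.8 and 108 in untreated iG+P and 2086 and 1420.5 in iG+P with Dox, with a difference of 3.48 (SE 0.58, limma adjusted p = 0.000456). Grin2c, an NMDA receptor subunit, was 357 and 474 in iPou4f3 with Dox and 3835 and 3003 in iG+P with Dox (2.31, SE 0.47, limma adjusted p = 0.00227). The alpha-defensin Defa5 was listed at 0 in all 4 untreated libraries, at 8.97 and 8.77 in iPou4f3 with Dox and at 116 and 145 in iG+P with Dox (limma adjusted p = 0.00399). Defensin genes are near-identical copies, so reads may be split among them.

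On the lower side, Dclk1, a doublecortin-like kinase of neurons, had 79.9 and 103 normalized counts in untreated iPou4f3, 991 and 876 in iPou4f3 with Dox, 104 and 104 in untreated iG+P and 107 and 124 in iG+P with Dox, with a difference of -3.20 (SE 0.60, limma adjusted p = 0.00113). Ebf1, a transcription factor of neurons and B cells, was 1329.5 and 1229.9 in iPou4f3 with Dox and 384 and 252 in iG+P with Dox, from 59.4 to 81.7 in untreated EBs (-2.18, SE 0.58, limma adjusted p = 0.0133). A2m, a protease inhibitor, had 333 and 205 normalized counts in untreated iPou4f3, 2833 and 1804 in iPou4f3 with Dox, 172 and 223 in untreated iG+P and 106 and 204 in iG+P with Dox, with a difference of -3.52 (SE 0.65, limma adjusted p = 0.00105). Dclk1 and A2m with Dox were at their untreated level or below it in iG+P, and Ebf1 kept part of its rise. Unc80, a subunit of a sodium leak channel, was 82.6 and 113 in iPou4f3 with Dox and 21.7 and 0.985 in iG+P with Dox (-5.09, SE 1.27, limma adjusted p = 0.00954). Ncan, a proteoglycan of nervous tissue, was 113 and 154 in iPou4f3 and 32.4 and 23.9 in iG+P with Dox, and 22.3 to 34.1 without (-2.53, SE 0.55, limma adjusted p = 0.00372). Hdc, the enzyme that makes histamine, was 363 and 474 in iPou4f3 and 61.8 and 72.6 in iG+P with Dox, and 14.3 to 44.1 without (-2.06, SE 0.57, limma adjusted p = 0.0169). Lhx5 and Cps1, described above, belong to the same side. Srrm3, a splicing regulator of neuronal microexons, was 784 and 881 in iPou4f3 with Dox and 352 and 262 in iG+P with Dox, from 117 to 152 in untreated EBs (-1.63, SE 0.49, limma adjusted p = 0.0257).

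General neuronal genes did not move as one group. Of 37 measured, none was higher and 4 were lower (10.8%, against 4.19% of all genes), and the median difference was −0.01, with median Dox effects of 0.53 in iPou4f3 and 0.28 in iG+P. Gap43, a protein of growing axons, had 1057 and 655 normalized counts in untreated iPou4f3, 2556 and 1716 in iPou4f3 with Dox, 311 and 436 in untreated iG+P and 31.4 and 48.8 in iG+P with Dox, with a difference of -4.53 (SE 0.52, limma adjusted p = 1.15e-05). It was higher with Dox in iPou4f3 and lower with Dox in iG+P, and without Dox it was also lower in iG+P. Kif5c, a neuronal kinesin, had 1026 and 1594 normalized counts in untreated iPou4f3, 1967 and 2330.5 in iPou4f3 with Dox, 3217 and 2878 in untreated iG+P and 1153 and 1008 in iG+P with Dox, with a difference of -2.24 (SE 0.36, limma adjusted p = 0.000355). Crmp1, a growth cone protein, was 402 and 304 in iPou4f3 with Dox and 136 and 112 in iG+P with Dox (-2.06, SE 0.52, limma adjusted p = 0.00952). In the Dox libraries alone the differences of Kif5c and Crmp1, −0.99 and −1.49, fell short of the size limit, and for Kif5c the untreated part was the larger. Nefl, neurofilament light chain, was 98.0 and 138 in iPou4f3 and 34.4 and 19.5 in iG+P with Dox (-2.34, SE 0.72, limma adjusted p = 0.0301), and leaving out any 1 of 6 of the 8 libraries ended its call.

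Among 28 measured sensory neuron genes 3 were higher (10.7%, against 3.43% of all genes) and 2 lower (7.14%, against 4.19%), with a median of −0.11. Sncg, gamma-synuclein, had 29.4 and 18.9 normalized counts in untreated iPou4f3, 2799 and 2922 in iPou4f3 with Dox, 10.2 and 18.1 in untreated iG+P and 6299.5 and 8684 in iG+P with Dox, with a difference of 2.12 (SE 0.52, limma adjusted p = 0.00833). It was raised in both lines with Dox and lay higher in iG+P. Its difference was not past the threshold without iG+P No Dox replicate 1 and was below the size limit in the Dox libraries alone (1.37). Ngfr, the p75 neurotrophin receptor, was 139.7 and 143 in iPou4f3 with Dox and 472 and 389 in iG+P with Dox (1.51, SE 0.32, limma adjusted p = 0.00282). Tlx3 (higher, with a larger untreated part) and Gal (lower) were below 50 counts in every library and each lost its call when 1 library was left out (for Gal 24.0 and 15.6 with Dox in iPou4f3 and 5.90 and 4.33 in iG+P, -1.91, SE 0.62, limma adjusted p = 0.041). Of 11 proneural bHLH genes Atoh1 was higher and Atoh8 was lower (9.09% each, which is 1 gene, against 3.43% and 4.19% of all genes). Atoh8 had 562 and 541 normalized counts in untreated iPou4f3, 806 and 671 in iPou4f3 with Dox, 659 and 648 in untreated iG+P and 169.7 and 185 in iG+P with Dox, with a difference of -2.29 (SE 0.33, limma adjusted p = 0.00013). The summed counts of the proneural list were 612.8 and 624.9 in untreated iPou4f3 and 1007 and 1006 in iPou4f3 with Dox. In iG+P they were 737.5 and 729.4 without Dox and 606.1 and 641 with it. Atoh8 made up most of each iPou4f3 Dox sum, and without Atoh8 the sums were not lower in iG+P with Dox.

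The Hox genes, whose clusters set position along the body axis, had the greatest share of lower members of all the lists. Of 34 measured, 20 were lower (58.8%, against 4.19% of all genes) and none higher, 33 of the 34 differences were negative, and the median was −2.61 against 0.02 over all genes. The exception in sign was Hoxb1, at 0.91 (SE 1.33, limma adjusted p = 0.7), with 27.1 and 24.5 normalized counts in untreated iPou4f3, 24.1 and 29.3 in iPou4f3 with Dox, 195 and 83.4 in untreated iG+P and 324 and 190.2 in iG+P with Dox. The median Dox effect of the 34 genes was 0.14 in iPou4f3 and −2.71 in iG+P, and the Dox libraries alone gave 20 lower and 1 higher. With each library left out in turn the count of lower Hox genes was 15 to 20. Summed over the list, counts were 9218 and 7625 in iPou4f3 with Dox and 4111 and 3597 in iG+P with Dox, against 6990 and 6810 and against 12570 and 9407 in the untreated EBs. The untreated iG+P EBs had the higher sum, with a median untreated difference of 0.54, which enters each difference beside the lower level with Dox.

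All 4 clusters took part. The lower genes were 4 of 9 in Hoxa, 5 of 9 in Hoxb, 6 of 8 in Hoxc and 5 of 8 in Hoxd, with medians of −2.47, −2.20, −4.18 and −2.04. By paralog number they were 1 of 8 for paralogs 1 to 3, 11 of 13 for paralogs 4 to 8, and 8 of 13 for paralogs 9 to 13, with medians of −1.27, −3.92 and −2.94. Hoxb6 had 327 and 227 normalized counts in untreated iPou4f3, 378 and 273 in iPou4f3 with Dox, 546 and 397 in untreated iG+P and 10.8 and 9.72 in iG+P with Dox, with a difference of -5.61 (SE 1.22, limma adjusted p = 0.00353). Hoxc8 had 259 and 384 normalized counts in untreated iPou4f3, 299 and 281 in iPou4f3 with Dox, 579.9 and 417 in untreated iG+P and 23.6 and 14.1 in iG+P with Dox, with a difference of -4.55 (SE 0.57, limma adjusted p = 3.32e-05). Hoxc4 gave 245 and 159.8 normalized counts in untreated iPou4f3, 263 and 209 in iPou4f3 with Dox, 267 and 269.8 in untreated iG+P and 13.1 and 12.6 in iG+P with Dox, with a difference of -4.52 (SE 0.40, limma adjusted p = 9.8e-07). In each of these 3 genes both untreated iG+P libraries were above the 4 iPou4f3 libraries, and both iG+P Dox libraries stood far below the other 6. Hoxc6 was 249 and 217 in iPou4f3 with Dox and 12.6 and 13.8 in iG+P with Dox (-4.10, SE 0.38, limma adjusted p = 1.37e-06). Hoxd13, the terminal Hoxd gene, was 61.5 and 52.8 in iPou4f3 and 5.90 and 3.24 in iG+P with Dox (-3.85, SE 0.94, limma adjusted p = 0.00837). The anterior genes moved less, as Hoxb2 with 1033 and 828 normalized counts in untreated iPou4f3, 1312 and 1179 in iPou4f3 with Dox, 1695 and 1362 in untreated iG+P and 808 and 763 in iG+P with Dox shows (-1.38, SE 0.50, limma adjusted p = 0.0665, of which -0.66 lay between the Dox libraries). Hoxa9, a gene that Gfi1 represses in blood progenitors, was 59.7 and 39.1 in iPou4f3 with Dox and 11.8 and 9.73 in iG+P with Dox (-2.74, SE 0.89, limma adjusted p = 0.0385), and 6 of the 8 single libraries each ended its call when left out. Transcripts of neighbouring Hoxa, Hoxb and Hoxd genes overlap in the annotation, so their counts are not fully separate.

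**Figure D4:**
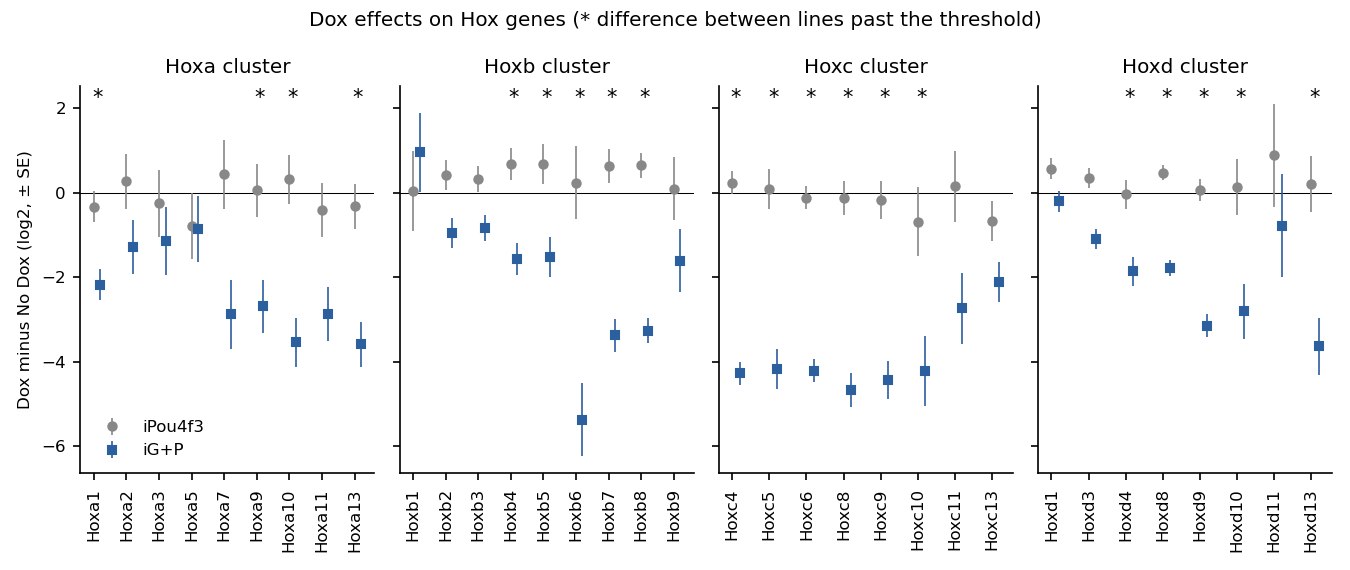
Dox minus No Dox (log2, error bars of 1 SE) of the 34 measured Hox genes by cluster in iPou4f3 (grey circles) and iG+P (blue squares), with a star over the 20 genes whose difference between the lines is past the threshold. The iPou4f3 values lie around 0, with a median of 0.14, and the iG+P values lie below them for every gene but Hoxb1.

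Genes of fibroblasts and mesenchyme also leaned lower. Of 23 measured, 12 were lower (52.2%, against 4.19% of all genes) and none higher, with a median of −1.75. Their summed counts were 394300 and 247900 in iPou4f3 with Dox against 125000 and 104500 in iG+P with Dox, and 478100 and 333300 against 219800 and 260200 in the untreated EBs. The median Dox effect was −0.36 in iPou4f3 and −2.04 in iG+P. Acta2, smooth muscle actin, had 34898 and 28104 normalized counts in untreated iPou4f3, 26549 and 19565 in iPou4f3 with Dox, 11096 and 21977 in untreated iG+P and 1139 and 1484 in iG+P with Dox, with a difference of -3.13 (SE 0.60, limma adjusted p = 0.00139). Vim, the intermediate filament vimentin, had 31216 and 29384 normalized counts in untreated iPou4f3, 36296 and 29098 in iPou4f3 with Dox, 32925 and 31069 in untreated iG+P and 5608 and 4377 in iG+P with Dox, with a difference of -2.79 (SE 0.30, limma adjusted p = 7.71e-06). The 6 libraries outside iG+P with Dox held 29098 to 36296 counts of Vim. Snai2, a SNAG-domain repressor of the epithelial to mesenchymal transition, had 3547 and 3537 normalized counts in untreated iPou4f3, 3768 and 3301 in iPou4f3 with Dox, 5466 and 4491 in untreated iG+P and 445 and 571 in iG+P with Dox, with a difference of -3.29 (SE 0.62, limma adjusted p = 0.00123). Col1a1, the main collagen chain, had 58642 and 40674 normalized counts in untreated iPou4f3, 37163 and 22712 in iPou4f3 with Dox, 41392 and 41086 in untreated iG+P and 3839 and 5782 in iG+P with Dox, with a difference of -2.38 (SE 0.54, limma adjusted p = 0.00502). In all 4 of these genes both iG+P Dox libraries lay below every other library. The remaining 8 were Col5a2, Thy1, Twist2, Col1a2, Pdgfrb, Pdgfra, Foxf1 and Col5a1, with differences from -2.95 (Col5a2) to -1.57 (Col5a1). Col5a2 lost its call without any 1 of 4 libraries. With each library left out in turn, 8 to 12 of the 23 were lower.

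Heart and mesoderm genes split. Of 19 measured, 2 were higher (10.5%, against 3.43% of all genes) and 4 lower (21.1%, against 4.19%), with a median of 0.56. Hand1, a bHLH factor of heart and extraembryonic mesoderm, had 21839 and 21417 normalized counts in untreated iPou4f3, 29608 and 24264 in iPou4f3 with Dox, 47582 and 35487 in untreated iG+P and 3320.1 and 3659 in iG+P with Dox, with a difference of -3.87 (SE 0.46, limma adjusted p = 1.57e-05). Tbx20, a cardiac T-box factor, had 4489 and 5406 normalized counts in untreated iPou4f3, 4860.3 and 4556 in iPou4f3 with Dox, 7564 and 7339 in untreated iG+P and 1036 and 767 in iG+P with Dox, with a difference of -3.0 (SE 0.54, limma adjusted p = 0.000848). Hand2 was 6055 and 4462 in iPou4f3 with Dox and 483 and 806 in iG+P with Dox (-2.84, SE 0.43, limma adjusted p = 0.000191), and Tbx5 235 and 219 in iPou4f3 and 53.0 and 79.2 in iG+P with Dox (-2.21, SE 0.70, limma adjusted p = 0.034). Going the other way, Tcf15, a bHLH factor of paraxial mesoderm and somites, had 61.0 and 65.8 normalized counts in untreated iPou4f3, 67.7 and 74.3 in iPou4f3 with Dox, 39.9 and 53.2 in untreated iG+P and 609 and 302 in iG+P with Dox, with a difference of 3.03 (SE 0.63, limma adjusted p = 0.00256). Msgn1, a bHLH factor of presomitic mesoderm, was 1.80 and 0 in iPou4f3 with Dox and 76.6 and 29.9 in iG+P with Dox (4.74, SE 1.58, limma adjusted p = 0.0449), but 6 of 8 single libraries each ended its call when left out.

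Epithelial genes had 4 lower of 20 (20%, against 4.19% of all genes) and none higher, with a median of −0.16. Krt8 and Krt18 are the paired keratins of simple epithelia. Krt8 was 9998 and 6896 in iPou4f3 with Dox and 1881 and 2079.7 in iG+P with Dox, with a difference of -2.46 (SE 0.42, limma adjusted p = 0.000554). Krt18 was 12900 and 10124 in iPou4f3 with Dox and 4106 and 3987 in iG+P with Dox, with a difference of -2.12 (SE 0.48, limma adjusted p = 0.00507), with −1.5 in the Dox libraries alone, just under the size limit. Krt19, a further simple keratin, had 1119 and 1052 normalized counts in untreated iPou4f3, 487 and 545 in iPou4f3 with Dox, 1186 and 1374 in untreated iG+P and 170 and 82.3 in iG+P with Dox, with a difference of -2.35 (SE 0.37, limma adjusted p = 0.000264). Tfap2a, a factor of surface ectoderm and neural crest, was 159.8 and 359 in iPou4f3 with Dox and 59.0 and 28.8 in iG+P with Dox (-3.29, SE 0.73, limma adjusted p = 0.00405). Of 20 endothelial genes, Vwf was higher (5.00%, against 3.43% of all genes) and Pecam1 and Erg were lower (10.0%, against 4.19%), while in the Dox libraries alone none was higher and 9 were lower, with medians of −1.04 there and −0.72 in the untreated libraries. Pecam1, an endothelial adhesion molecule, had 2902 and 3019.5 normalized counts in untreated iPou4f3, 1884 and 2226 in iPou4f3 with Dox, 3319 and 3116 in untreated iG+P and 332 and 375 in iG+P with Dox, with a difference of -2.65 (SE 0.36, limma adjusted p = 7.41e-05). Vwf, von Willebrand factor, had 581 and 474 normalized counts in untreated iPou4f3, 184 and 233 in iPou4f3 with Dox, 149 and 205 in untreated iG+P and 421 and 449 in iG+P with Dox, with a difference of 2.65 (SE 0.58, limma adjusted p = 0.00379), which rests on its untreated iPou4f3 libraries in large part, since the Dox libraries alone differed by 1.07 for Vwf. Of 13 endoderm genes Dab2 was lower (7.69%, against 4.19%), at 7595 and 5778 against 879 and 939 with Dox (-2.61, SE 0.52, limma adjusted p = 0.00189).

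Among 21 blood genes 1 was higher (4.76%, near the 3.43% of all genes), Lmo2, a partner of the blood and endothelial factor Tal1. It had 2228 and 2004 normalized counts in untreated iPou4f3, 3078 and 3244 in iPou4f3 with Dox, 1386 and 1704 in untreated iG+P and 7399 and 7428 in iG+P with Dox, with a difference of 1.69 (SE 0.40, limma adjusted p = 0.00707). In the Dox libraries alone Lmo2 was below the size limit (1.23), and none of the blood genes was higher and 3 were lower. The median difference of the blood list was 0.85, its median untreated difference was −1.03, and its median in the Dox libraries was −0.16, so the lean upward lay in the untreated EBs. The same held for the 18 immediate early and dissociation genes, with a median difference of 1.31, of which the untreated libraries gave −1.12 and the Dox libraries 0.23. In that list 17 differences were positive and 1 gene, Ier3, passed the threshold, with 524 and 722 normalized counts in untreated iPou4f3, 224 and 247 in iPou4f3 with Dox, 191 and 357 in untreated iG+P and 447 and 245 in iG+P with Dox (1.72, SE 0.53, limma adjusted p = 0.0311, a call that leaving out any 1 of 5 libraries ended, with the larger part, -1.23, in the untreated libraries). Of 14 genes known as Gfi1 targets in blood cells, 3 were lower (21.4%, against 4.19% of all genes): Hoxa9, Csf1 and Meis1. Csf1, a macrophage growth factor, had 2014 and 1264 normalized counts in untreated iPou4f3, 1552 and 1126 in iPou4f3 with Dox, 711 and 1070.3 in untreated iG+P and 234 and 212 in iG+P with Dox, with a difference of -1.69 (SE 0.42, limma adjusted p = 0.00908). Meis1, a Hox cofactor, had 1029 and 1018 normalized counts in untreated iPou4f3, 1254 and 892 in iPou4f3 with Dox, 1074 and 1109.8 in untreated iG+P and 420.2 and 320.3 in iG+P with Dox, with a difference of -1.62 (SE 0.34, limma adjusted p = 0.0027). Each of the 3 lost its call when one of certain libraries was left out, iPou4f3 Dox replicate 1 among them for all 3. The median of these 14 genes was 0.11.

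Neither the 22 cell cycle genes (median 0.08) nor the 20 pluripotency genes (median −0.21) had a member past the threshold. Of all genes 3.43% were higher and 4.19% lower, so in lists of this size an absence of calls is near those shares. Of 7 CDK inhibitors Cdkn2c was lower (1 gene, against 4.19% of all genes), with 151 and 139.9 in iPou4f3 with Dox and 30.4 and 41.1 in iG+P with Dox (-1.52, SE 0.38, limma adjusted p = 0.0096, and below the size limit after rescaling by the 75th percentile or without any 1 of 4 libraries). Of 22 neural progenitor genes, Gbx2 was higher (4.55%, against 3.43% of all genes), at 9.80 and 9.77 against 326 and 86.5 with Dox (4.22, SE 1.33, limma adjusted p = 0.034). En1 and Zic1 were lower (9.09%, against 4.19%), with 75.7 and 55.8 in iPou4f3 and 19.7 and 6.50 in iG+P with Dox for Zic1 (-2.52, SE 0.55, limma adjusted p = 0.00352). Gbx2 and En1 each lost their call on leaving out any 1 of 6 libraries. Among 17 genes of the Gfi1 family and its corepressors only Snai2 passed (5.88% lower, near the 4.19% of all genes), and the median was 0.09.

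**Figure D5:**
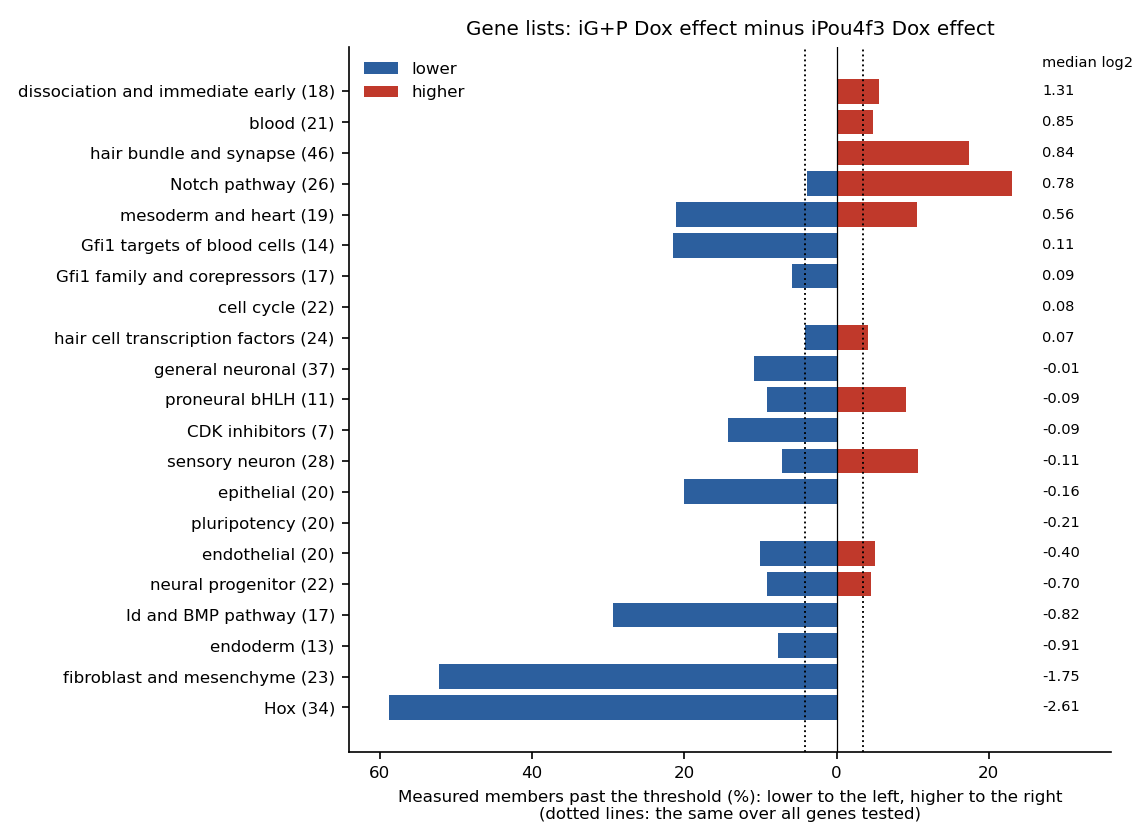
Percent of the measured members of each gene list (number in brackets) with a lower (blue, to the left) or higher (red, to the right) Dox effect in iG+P than in iPou4f3, with the median log2 difference at the right and dotted lines at the shares over all genes tested. Hox genes (median −2.61) and fibroblast and mesenchyme genes (median −1.75) have the longest bars to the left, and Notch pathway and hair bundle and synapse genes the longest to the right.

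In the Notch pathway a ligand on one cell activates the receptor on its neighbour, Fringe enzymes tune the receptor, and Hes and Hey repressors are the targets. Of 26 measured genes 6 were higher (23.1%, against 3.43% of all genes) and 1 lower (3.85%, against 4.19%), with a median of 0.78, and in the Dox libraries alone 6 were higher and none lower. The ligands Jag1 (-0.50, limma adjusted p = 0.461) and Dll4 (0.75, limma adjusted p = 0.353) and the Fringe Rfng (0.31, limma adjusted p = 0.318) did not pass. Of the ligands, Dll3 had 42.9 and 117 normalized counts in untreated iPou4f3, 42.7 and 209 in iPou4f3 with Dox, 168 and 185 in untreated iG+P and 2825 and 1348 in iG+P with Dox, with a difference of 3.05 (SE 0.96, limma adjusted p = 0.034). Dll1 had 46.3 and 90.4 normalized counts in untreated iPou4f3, 28.5 and 54.8 in iPou4f3 with Dox, 54.2 and 103 in untreated iG+P and 476 and 242 in iG+P with Dox, with a difference of 2.86 (SE 0.81, limma adjusted p = 0.019). Jag2 had 421 and 485 normalized counts in untreated iPou4f3, 223 and 305 in iPou4f3 with Dox, 449.7 and 638 in untreated iG+P and 1480.2 and 1113 in iG+P with Dox, with a difference of 2.05 (SE 0.32, limma adjusted p = 0.000245). The iG+P Dox libraries were above the other 6 in all 3 ligands, but the 2 clones of iG+P with Dox were about 2-fold apart for Dll3 and Dll1. Lfng, a Fringe, had 113 and 67.7 normalized counts in untreated iPou4f3, 46.7 and 85.0 in iPou4f3 with Dox, 68.3 and 127 in untreated iG+P and 731 and 306 in iG+P with Dox, with a difference of 2.80 (SE 0.54, limma adjusted p = 0.0014). Mfng, a second Fringe, had 152 and 146 normalized counts in untreated iPou4f3, 117 and 137 in iPou4f3 with Dox, 36.8 and 78.2 in untreated iG+P and 361 and 268 in iG+P with Dox, with a difference of 2.75 (SE 0.38, limma adjusted p = 7.72e-05). For Mfng the untreated part was larger, at -1.46 between the untreated lines against 1.29 between the Dox libraries. Of the targets, Heyl was 6.23 and 13.7 in iPou4f3 with Dox and 60.8 and 26.0 in iG+P with Dox (2.35, SE 0.70, limma adjusted p = 0.0252), and Hey2 went the other way with 768 and 910.4 normalized counts in untreated iPou4f3, 993 and 891 in iPou4f3 with Dox, 1826 and 1399 in untreated iG+P and 464 and 388 in iG+P with Dox (-2.08, SE 0.27, limma adjusted p = 5.26e-05, and -1.15 in the Dox libraries alone). Leaving out iPou4f3 No Dox replicate 2, iPou4f3 Dox replicate 1 or iG+P Dox replicate 1 brought the 6 higher genes down to 3.

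BMP ligands act through Smad proteins, Nog and Fst bind BMP-family ligands outside the cell, and Msx and Id genes are targets. Of 17 measured genes of this pathway, 5 were lower (29.4%, against 4.19% of all genes) and none higher, with a median of −0.82. In the Dox libraries alone 2 were lower and 2 higher, and the median was −0.39 there and 0.46 in the untreated libraries. Bmp4, the ligand, had 6468 and 6059 normalized counts in untreated iPou4f3, 5707 and 5196 in iPou4f3 with Dox, 10644 and 9358 in untreated iG+P and 2061 and 1976 in iG+P with Dox, with a difference of -2.10 (SE 0.40, limma adjusted p = 0.00141). Nog, the inhibitor noggin, had 524 and 420.3 normalized counts in untreated iPou4f3, 569 and 677 in iPou4f3 with Dox, 638 and 649.7 in untreated iG+P and 185 and 178 in iG+P with Dox, with a difference of -2.22 (SE 0.57, limma adjusted p = 0.0108). Msx1 had 2856 and 2723 normalized counts in untreated iPou4f3, 3824 and 3268 in iPou4f3 with Dox, 5848 and 4335 in untreated iG+P and 2246 and 1499.7 in iG+P with Dox, with a difference of -1.80 (SE 0.36, limma adjusted p = 0.002). Msx2 had 1850.1 and 2685 normalized counts in untreated iPou4f3, 2828 and 3359.8 in iPou4f3 with Dox, 8489.9 and 5529.5 in untreated iG+P and 2240.3 and 1632 in iG+P with Dox, with a difference of -2.31 (SE 0.54, limma adjusted p = 0.00593). The untreated iG+P EBs held more Bmp4, Msx1 and Msx2 than the untreated iPou4f3 EBs, and in the Dox libraries alone these 3 differences were below the size limit (−1.43, −0.94 and −0.69), with the larger part for Msx2 in the untreated libraries. Fst, follistatin, was 287 and 247 in iPou4f3 with Dox and 62.9 and 42.3 in iG+P with Dox (-1.72, SE 0.57, limma adjusted p = 0.0451). None of the 4 Id genes passed.

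Gfi1 was also induced in 3 settings that share no library with this comparison. Expressed alone (iGfi1 with against without Dox, which also holds the effect of sorting), it raised 362 genes (2.15%) and lowered 449 (2.67%). Added to Atoh1 (iG+A against iAtoh1), it gave 747 higher (4.44%) and 410 lower (2.44%). Added to Pou4f3 with Atoh1 (iGPA against iP+A), it gave 802 higher (4.76%) and 478 lower (2.84%). In iGPA and iP+A the mean Pou4f3 counts with Dox were 1.19-fold apart, so the gap in Pou4f3 seen between iG+P and iPou4f3 was small there.

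Of the 578 higher genes, 261 were also higher when Gfi1 was added to Pou4f3 with Atoh1 (45.2% of the 578 and 32.5% of the 802). They shared 214 genes with the addition to Atoh1 (37.0% and 28.6% of the 747) and 189 with Gfi1 alone (32.7% and 52.2% of the 362). The 706 lower genes shared 271 with the addition to Pou4f3 with Atoh1 (38.4% and 56.7% of the 478), 176 with the addition to Atoh1 (24.9% and 42.9% of the 410) and 255 with Gfi1 alone (36.1% and 56.8% of the 449). In all 3 settings, 74 of the higher and 77 of the lower genes were past the threshold in the same direction, and 202 and 290 were in none. Past the threshold in the opposite direction were 1, 4 and 2 of the higher genes and 0, 11 and 7 of the lower genes, for Gfi1 alone, with Atoh1, and with Pou4f3 and Atoh1. The overlaps have no test, and each gene's spread is estimated in one fit for all of them. The median effect of the 578 genes was 1.14, 1.36 and 1.67 in these settings, and of the 706 genes −1.32, −1.0 and −1.30, against 0.02, 0.01 and 0.02 over all genes. The Hox list had medians of −0.94, −0.71 and −1.54 there, the fibroblast list −1.30, −1.30 and −1.91, and the hair bundle and synapse list 0.19, 0.15 and 0.74.

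Single genes differed in their values across these settings. Gap43 had an effect of -2.59 with Gfi1 alone, -4.25 with Atoh1 and -6.25 with Pou4f3 and Atoh1. In the same order Acta2 had -2.27, -1.38 and -2.57, and Hand1 -2.51, -4.01 and -3.89. Slc17a8 had 1.59, 3.21 and 4.53, Tmie -0.06, 5.22 and 4.43, and Lhx5 -0.61, -0.08 and -3.24. Gap43, Acta2 and Hand1 had values below −1 in all 3 settings. Slc17a8 was positive in all 3, Tmie was near 0 with Gfi1 alone and high in both settings with Atoh1, and Lhx5 was below −1 in the setting with Pou4f3 and Atoh1 and within 1 of 0 in the other two.

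The difference can further be set against Gfi1 alone, by subtracting the Dox effect of iGfi1 from it. What is left is the effect of iG+P beyond the sum of both single lines. The iGfi1 effect also holds the effect of sorting, which is not cancelled in this measure. By this measure 20 genes were higher (0.119%) and 15 lower (0.0891%) with limma, and 1399 were at an unadjusted p under 0.05. These counts fell to as few as 5 and 3 when a single library was left out, so the genes below are a description of these 12 libraries. The median SE was 0.319, larger than that of the simple difference because 6 groups enter. Of the 20 higher genes 16, and of the 15 lower genes 12, were also among the 578 and the 706 (3.43% and 4.19% of all genes). Both measures use the same 8 libraries, so this overlap is partly built in and tests nothing. The 20 higher genes had a median of 3.18 beyond the sum, and a median Dox effect of −0.22 in iGfi1. The 15 lower genes had medians of −2.80 and −0.41. Of these genes, 6 higher and 7 lower ones were past the threshold in the same direction when Gfi1 was added to Pou4f3 with Atoh1.

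Gsn, the actin severing protein gelsolin (Entrez 227753, chromosome 2, 35111927 to 35163420 of NCBIM37) had 1039.9 and 836 normalized counts in untreated iPou4f3, 1259 and 1077 in iPou4f3 with Dox, 457 and 642 in untreated iG+P and 10971 and 12220 in iG+P with Dox, with a value of 3.46 beyond the sum (SE 0.29, limma adjusted p = 5.25e-06). In the other lines with Dox it was 1334 and 1456 in iGfi1, 447.7 and 518 in iAtoh1, 935.8 and 979.7 in iP+A, 4209 and 3899 in iG+A, and 10670 and 10970 in iGPA. Gsn was therefore high in the 3 lines that hold Gfi1 with a second factor, and not in the lines without Gfi1 or with Gfi1 alone. Lrrc4 was above 0 in the same 3 lines with Dox, with 77.65 and 123.3 in iG+A with Dox, 489.9 and 438.9 in iGPA with Dox, and listed at 0 in both libraries of all other groups but iG+P with Dox. Gsn and Lrrc4 were chosen for this description after their values were seen.

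Of the other genes above the sum, Twf2, a twinfilin that binds actin, had 1017 and 987 normalized counts in untreated iPou4f3, 1876 and 1738 in iPou4f3 with Dox, 864 and 902 in untreated iG+P and 4876 and 4693 in iG+P with Dox and a value of 1.53 beyond the sum (SE 0.19, limma adjusted p = 0.000473). Mical2, an enzyme that oxidizes actin, had 269 and 250.3 normalized counts in untreated iPou4f3, 159 and 133 in iPou4f3 with Dox, 121 and 117 in untreated iG+P and 540.5 and 551 in iG+P with Dox and a value of 2.62 (SE 0.30, limma adjusted p = 0.000232). Mical2 was higher still in iAtoh1 with Dox, at 1279 and 1136, and in iGPA with Dox, at 956.6 and 1308, and it was 490.1 and 474.3 in iG+A with Dox. Palm3, a paralemmin of the cell membrane, had 160.2 and 147 normalized counts in untreated iPou4f3, 178 and 184 in iPou4f3 with Dox, 155 and 189 in untreated iG+P and 1028 and 998 in iG+P with Dox and a value of 3.15 (SE 0.57, limma adjusted p = 0.0223). For Palm3, iP+A with Dox (337.7 and 374.9) and iGPA with Dox (614.1 and 613.5) were the next highest. Twf2 dropped below the size limit without any 1 of 3 libraries, and Palm3 lost its call without any 1 of 11 of the 12.

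Below the sum were 5 Hox genes, 7 genes raised past the threshold with Dox in iPou4f3, and 3 others, Cxcl14, Egflam and Slc19a3. Of the 7, Hprt and Slc32a1 were raised past the threshold in iGfi1 as well. Hoxc6 with Dox was 74.04 and 90.26 in iGfi1, 249 and 217 in iPou4f3 and 12.6 and 13.8 in iG+P, with a value of -2.75 beyond the sum (SE 0.47, limma adjusted p = 0.0174). Both iGPA libraries with Dox were low for Hoxc6 too, at 19.54 and 11.25. Cped1, a cadherin-like domain protein, had 165 and 207 normalized counts in untreated iPou4f3, 604 and 575 in iPou4f3 with Dox, 146 and 173 in untreated iG+P and 46.1 and 41.2 in iG+P with Dox and a value of -3.11 (SE 0.42, limma adjusted p = 0.00178). Slc32a1, the vesicular GABA transporter, was raised in both single lines, to 986 and 1104 in iPou4f3 and 778.1 and 994.9 in iGfi1, and was 1032 and 1409 in iG+P. Its value beyond the sum was -2.64 (SE 0.48, limma adjusted p = 0.0223), so iG+P stood near either single line rather than at their sum. Hprt, which lies next to the cassette in A2loxCre cells, had 632 and 686 normalized counts in untreated iPou4f3, 7154 and 8564 in iPou4f3 with Dox, 277 and 303 in untreated iG+P and 6954 and 9032 in iG+P with Dox, and 344.5 and 330.1 and 9733 and 7743 in iGfi1 without and with Dox. Its value of -3.48 beyond the sum (SE 0.33, limma adjusted p = 1.97e-05) was among the lowest. By construction, a gene raised to a like level in every induced line comes out below the sum, and a gene lowered to a like level comes out above it. Bves, above the sum, had Dox effects of -1.53 in iPou4f3, -1.97 in iGfi1 and -0.595 in iG+P.

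The Gfi1 binding sequence was looked for near start sites. The core AATCACNGC appears as AATCACTGC 2 times in the R21 oligo, which the study multimerized in a reporter for Gfi1 and which is shown here with the cores in capitals.
R21 forward: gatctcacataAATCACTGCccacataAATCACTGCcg
Promoters were taken from RefSeq (GRCm38.p6, 250 bases before to 50 bases after a start) and both strands were searched, with 439 higher and 515 lower genes matched. The core was in 3 of 567 promoters (0.529%) of higher genes, 14 of 670 (2.09%) of lower genes and 171 of 16562 (1.03%) of all genes tested. The Pou4f core ATAATTAAT was in 1 (0.176%), 0 and 23 (0.139%). These shares describe letters in a short window and do not show binding. A few matches are shown as examples of the core beside genes past the threshold, chosen after their values were seen, each 29 bases on the strand of the gene with the core in capitals.
P4ha3 (lower, chr7:100285318-100285346, plus strand): taactagagaAATCACTGCtcacccgcgc
Gstm6 (lower, chr3:107953632-107953660, minus strand): caggcctgccAATCACTGCctttggtatc
Slc35f1 (lower, chr10:52690340-52690368, plus strand): acccaccaccAATCACAGCatcctagacc
Plcxd2 (lower, chr16:46010450-46010478, minus strand): gccaacgaccAATCACAGCtcgcctagtc
Tll2 (higher, chr19:41206850-41206878, minus strand): ccgccagcacAATCACAGCcaccgcagcc
Casz1 (higher, chr4:148804356-148804384, plus strand): agaattccatAATCACAGCgggcgagagc
P4ha3, a prolyl hydroxylase subunit that acts on collagen, had 658 and 628 normalized counts in untreated iPou4f3, 438 and 426 in iPou4f3 with Dox, 426 and 551 in untreated iG+P and 27.4 and 54.6 in iG+P with Dox, with a difference of -3.04 (SE 0.42, limma adjusted p = 8.11e-05). Gstm6, a glutathione transferase with close paralogs, was 35.6 and 46.9 in iPou4f3 with Dox and 3.93 and 4.33 in iG+P with Dox (-2.94, SE 0.65, limma adjusted p = 0.004). Plcxd2, a phospholipase C domain protein, was 281 and 409 in iPou4f3 and 85.3 and 155 in iG+P with Dox, and 55.3 to 87.9 without (-1.93, SE 0.54, limma adjusted p = 0.0194). Slc35f1, a membrane transporter family member, was 36.5 and 77.4 in iPou4f3 and 23.5 and 19.5 in iG+P with Dox (-1.94, SE 0.55, limma adjusted p = 0.019). Tll2 and Casz1, whose values are given above, hold the same core and had higher Dox effects in iG+P.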

How the data were processed

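The deposited values are log2(normalized count + 1), which the authors made after cutadapt trimming, Kallisto pseudo-alignment to the mm9 knownGene set of UCSC, summing per gene in tximport and DESeq2 normalization (versions not given in the sources used here). Values were turned back into normalized counts for display. Whole reads were not recovered (73.1% to 77% of low values in the 8 libraries lay within 0.05 of a whole multiple), so no count test was run. Of 19421 genes, the 16837 that reached 10 normalized counts in 2 or more of 28 libraries were kept. The 14 groups entered 1 limma fit (limma 3.58.1, R 4.3.3) with a variance trend and Benjamini-Hochberg adjustment, on log2(count + 1), a scale that understates folds of low genes. Genes were named from RefSeq (19314) and placed on NCBIM37. The fit was checked on simulated data. Replicate numbers, taken as clones although no label ties a number without Dox to the same number with Dox, gave correlations of deviations of 0.23 in iPou4f3, 0.1 in iG+P and 0.13 in iGfi1 between untreated and Dox libraries. A fit with the replicate as a block was an alternative.

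Named genes are both transgenes, the 12 largest differences in each direction among genes past the threshold with the same sign in both replicates and a mean of at least 50 in some group, up to 4 members past the threshold of each list, and the markers the study names. Genes at 0 in 1 untreated library and above 50 in another (1 higher and 3 lower past the threshold) were not named among the largest. Further list members, genes responsive to Pou4f3 in other lines, genes beyond the sum and genes with the Gfi1 core were named after their values were seen. Members and lists were chosen with earlier results of these data known. Replicates measure the spread between these libraries. Alternatives were the pseudocount, the filter, quantile and 75th percentile scaling, the block, only the lines compared, no trend, a lower size limit, the Dox libraries alone and leaving out each library. Kit strandedness was not used. Values of 2 list members are not reported here, and both are counted in their lists.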

Additional observations from a re-analysis of the deposited data

Results flagged for a closer look

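The Dox effects of iG+P and iPou4f3 differed, by the test of the difference itself, for 578 genes upward and 706 downward, and the report describes them. The Dox effect of iG+P also differed from the sum of both single lines for 20 genes upward and 15 downward, and the values of these genes follow on the log2 scale.

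Higher than the sum were Gsn (3.46) and Twf2 (1.53), which act on actin filaments, Mical2 (2.62) and Parvg (3.20), also proteins of the actin cytoskeleton or its adhesions, and Palm3 (3.15). Also higher were Pcdh17 (5.08), Ppp1r1b (5.41), Col12a1 (3.82), Ccdc88b (3.6), Efcab6 (3.45), Tesc (3.15), Bves (2.90), Cd82 (2.79), Nrg3 (2.47), Dact1 (2.08), Atp11a (1.62) and Stard10 (1.56). Lrrc4 (8.68) and 4933409K07Rik (11.01) have libraries at 0, so their fitted values depend on the pseudocount and are no bound. For 4933409K07Rik the untreated lines differed by -3.69 and the Dox effect in iGfi1 was -4.72, while the Dox libraries of iG+P and iPou4f3 differed by 2.59. The value of Mogat1 (9.36) rests in large part on untreated iPou4f3, with 564 and 543 normalized counts against 23.8 and 25.9 in untreated iG+P. Dact1, Bves, Stard10 and Atp11a were not among the 578 genes, and their value beyond the sum includes the Dox effect of iGfi1, which was -0.74 for Dact1, -1.97 for Bves, -1.05 for Stard10 and -0.19 for Atp11a.

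Lower than the sum were the Hox genes Hoxb8 (−2.88), Hoxc4 (−2.86), Hoxc6 (−2.75), Hoxd9 (−2.28) and Hoxd8 (−1.92), and Unc5d (−3.69), Cyp26b1 (−2.80), Sorcs3 (−2.70), Egflam (−2.33), Cped1 (−3.11), Cxcl14 (−4.39), Slc32a1 (−2.64), Slc19a3 (−1.72) and Hprt (−3.48). Mstn (−5.77) is listed at 0 in every iG+P library, so its value depends on the pseudocount. Cyp26b1, the enzyme that breaks down retinoic acid, had 104 and 109 normalized counts in untreated iPou4f3, 909 and 904 in iPou4f3 with Dox, 119.7 and 141 in untreated iG+P and 147 and 178 in iG+P with Dox, with a Dox effect of 0.04 in iGfi1. Adding Gfi1 to Atoh1 moved Cyp26b1 the other way (4.45, limma adjusted p = 5.79e-06). Adding Gfi1 to Pou4f3 with Atoh1 gave 0.53, which was not past the threshold. Unc5d, a netrin receptor, had 24.8 and 35.7 normalized counts in untreated iPou4f3, 544 and 473 in iPou4f3 with Dox, 24.5 and 52.1 in untreated iG+P and 94.1 and 74.8 in iG+P with Dox, with a Dox effect of 0.85 in iGfi1. Of the 35 genes, all but Lrrc4, Gsn, Hprt, Cped1, Parvg and Mical2 lost their call when at least 1 library was left out.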

How the results depend on the processing

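Of 2495 recomputed values of 126 differences of single genes under the alternatives, 2089 kept their side of the threshold, 401 lost the call, 4 gained it and 1 called value changed sign, Pou4f3 at 1.90 in the Dox libraries alone. Values not called either way could also change sign, as Otx1 did in the Dox libraries alone. The 578 higher genes became 362 to 658 when a library was left out. They were 362 without iG+P No Dox replicate 1 and 381 without iPou4f3 Dox replicate 1, and 481 to 662 under the other settings, apart from 817 at a log2 difference of at least 1. The 706 lower genes became 536 to 699 with a library left out, 676 to 897 under the other settings and 1091 at a log2 difference of at least 1. The replicate block, which assumes that libraries with the same replicate number are the same clone although no label says so, gave 662 higher and 776 lower, of which 560 and 699 are among the 578 and 706. Beyond the sum, the 20 higher and 15 lower genes became 40 and 24 with a pseudocount of 5, 25 and 27 with the replicate block, 18 and 10 with only the libraries of the lines compared (of which 11 and 6 are among the 20 and 15), and 5 to 34 and 3 to 21 with a library left out. Higher counts of 5 were given without iGfi1 No Dox replicate 1, iG+P No Dox replicate 1 or iPou4f3 No Dox replicate 1, and lower counts of 3 without iGfi1 No Dox replicate 2, iPou4f3 No Dox replicate 1 or iGfi1 Dox replicate 2. The cause of these moves was not tested. With 2 clones per group, no value separates Gfi1 from the higher Pou4f3 of the iG+P line, and the depth of genes near 10 counts limits what can be called.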
